A study of Mus musculus with 2 samples.

Results

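The mouse genome encodes a family of secreted WNT ligands, their Frizzled (Fzd) receptors, and the secreted Sfrp and Dkk proteins that bind ligands or co-receptors. Members were all genes whose symbol is Wnt, Fzd, Sfrp or Dkk followed by a number, with or without the letter a or b, and which have at least 1 protein-coding transcript. This gave 37 of the 22028 protein-coding genes in the tables: 19 Wnt, 10 Fzd, 4 Sfrp and 4 Dkk genes. All 37 were present in the tables of both libraries.

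The hearts are those of female mice of strain B6CASTF1/J at 10 days of age, the F1 offspring of C57BL/6J and CAST/EiJ parents by its name. The labels number them as biological replicates 1 and 2, with 1 library of total RNA each, made from 300 ng of RNA with ERCC spike-in RNAs. No agent, engineered allele or second condition is given, so the comparisons are between members and between the hearts. The labels place both under a single donor record and do not say how the animals are related. The p-values given here cover counting error alone, so a difference between the libraries may be technical.

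A WNT ligand is loaded with a lipid in the secreting cell, carried to the surface by the transporter Wls, and recognised by the cysteine-rich domain of a Frizzled. With the co-receptors Lrp5 or Lrp6 the complex stabilises beta-catenin, and with Ror or Ryk receptors it acts on the cytoskeleton and cell polarity. Sfrp proteins carry a Frizzled-like domain that binds ligands, whereas Dkk1, Dkk2 and Dkk4 bind Lrp5 and Lrp6. In the heart the pathway is best known for its part in the early choice of cardiac fate, in valve and outflow tract formation, and in the vessels and fibroblasts after birth.

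The tables hold 40184480 expected counts over annotated genes in replicate 1 and 39620519 in replicate 2. Levels are given in TPM, transcript abundance scaled by transcript length and library size, which allows genes to be compared. All 5 cardiomyocyte, 5 fibroblast, 5 endothelial, 6 mural and 5 epicardial markers were above 1 TPM in both libraries. The sums of several of the 14 marker lists differed between the hearts, and 5 are given here. No test was made of the sums. By the 2-fold call described below, 5 adipocyte, 5 erythroid, 1 atrial and 1 Schwann cell and neuron marker were called, and 0 skeletal muscle markers. The 6 adipocyte markers summed to 64.7 TPM in replicate 1 and 10.2 in replicate 2, the 5 erythroid markers to 5269 and 12984 TPM, and the 6 atrial markers to 522 and 966 TPM. All 6 adipocyte markers were higher in replicate 1, and all 5 erythroid and all 6 atrial markers were lower in it; none of the 17 had a count of 0. The 5 Schwann cell and neuron markers, of which Th was at 0 counts in both, summed to 6.94 and 2.58 TPM and the 3 skeletal muscle markers to 92.7 and 148 TPM. In tissue RNA, fewer cells of a type and less RNA per cell cannot be told apart.

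WNT proteins share a loop with a serine that carries the lipid. The coding windows of 24 bases around that serine are shown for the 3 most abundant ligands and for Wnt2, whose codon is of another kind, with the serine codon in capitals. They were read 5′ to 3′ in the direction of the gene from mm10, the reference sequence, and do not show CAST/EiJ variants.

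Wnt5a: tgtcatggagtgTCTggctcctgt
Wnt9a: tgccatggtgtgTCTggctcctgc
Wnt5b: tgtcacggagtcTCCgggtcctgc
Wnt2: tgtcatggtgtgAGTggctcctgt

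The windows lie within 1 exon each, at chr14:28522515-28522538 on the plus strand for Wnt5a, chr11:59330926-59330949 on the plus strand for Wnt9a, chr6:119433800-119433823 on the minus strand for Wnt5b and chr6:18008792-18008815 on the minus strand for Wnt2. They hold serine 244 of Wnt5a, serine 221 of Wnt9a, serine 236 of Wnt5b and serine 212 of Wnt2. Residues are numbered in the longest annotated protein of each gene, which is Wnt5a-201 (380 residues) for Wnt5a and Wnt5b-203 (372 residues) for Wnt5b. Numbers in the shorter proteins were not read. All 19 Wnt genes encode the window, including the 5 at a count of 0 in both hearts. Of 18 windows read out, 16 have a serine codon that starts with TC and 2 have one that starts with AG, those of Wnt2 and Wnt2b. Wnt5a matches Wnt9a at 21 of the 24 bases and Wnt5b at 19.

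A second set shows the cytoplasmic end of the receptors, where a lysine and threonine, then any 3 residues, then a tryptophan form the motif that contacts Dishevelled. The 3 most abundant Fzd genes and Fzd3, the nearest relative of Fzd6, are given with the codons of the fixed residues in capitals.

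Fzd4: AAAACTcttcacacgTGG
Fzd6: AAGACGtgcacagaaTGG
Fzd1: AAGACActgaattccTGG
Fzd3: AAGACAtgctttgaaTGG

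These stand at chr7:89408241-89408258 on the plus strand (Fzd4), chr15:39033949-39033966 on the plus strand (Fzd6), chr5:4755706-4755723 on the minus strand (Fzd1) and chr14:65212107-65212124 on the minus strand (Fzd3), in mm10. The motif was found in all 10 Fzd genes. Fzd3 and Fzd6 share 14 of the 18 bases, whereas Fzd4 shares 11 with Fzd1 and 7 with Fzd6.

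At 10 days the heart held few WNT ligand transcripts and a broad set of receptors. A member was called detected at 1 TPM or more in both libraries. 14 of 37 members (37.8%) were detected, against 53.3% of all protein-coding genes. With 20 counts in each library as the threshold, which favours long genes, the shares were 56.8% of members and 59.0% of protein-coding genes. The split by class was 3 of 19 Wnt, 8 of 10 Fzd, 2 of 4 Sfrp and 1 of 4 Dkk genes. The median level of the members was 0.34 TPM (replicate 1) and 0.47 TPM (replicate 2).

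Summed over the class, the Fzd genes reached 61.8 and 59.95 TPM in replicates 1 and 2, and the Wnt genes 15.4 and 13.55 TPM. The Fzd sum was thus 4.01-fold and 4.42-fold the Wnt sum in the 2 hearts. The Sfrp sums were 20.6 and 20.4 TPM, or 1.34-fold and 1.51-fold the Wnt sum. The Dkk sums were 18.0 and 24.2 TPM. The Wnt sum was the lowest of the class sums in each heart. As means ± SD over n = 2 libraries the sums were 60.9 ± 1.27 TPM for Fzd, 21.1 ± 4.38 for Dkk, 20.5 ± 0.148 for Sfrp and 14.5 ± 1.29 for Wnt.

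**Figure D1:**
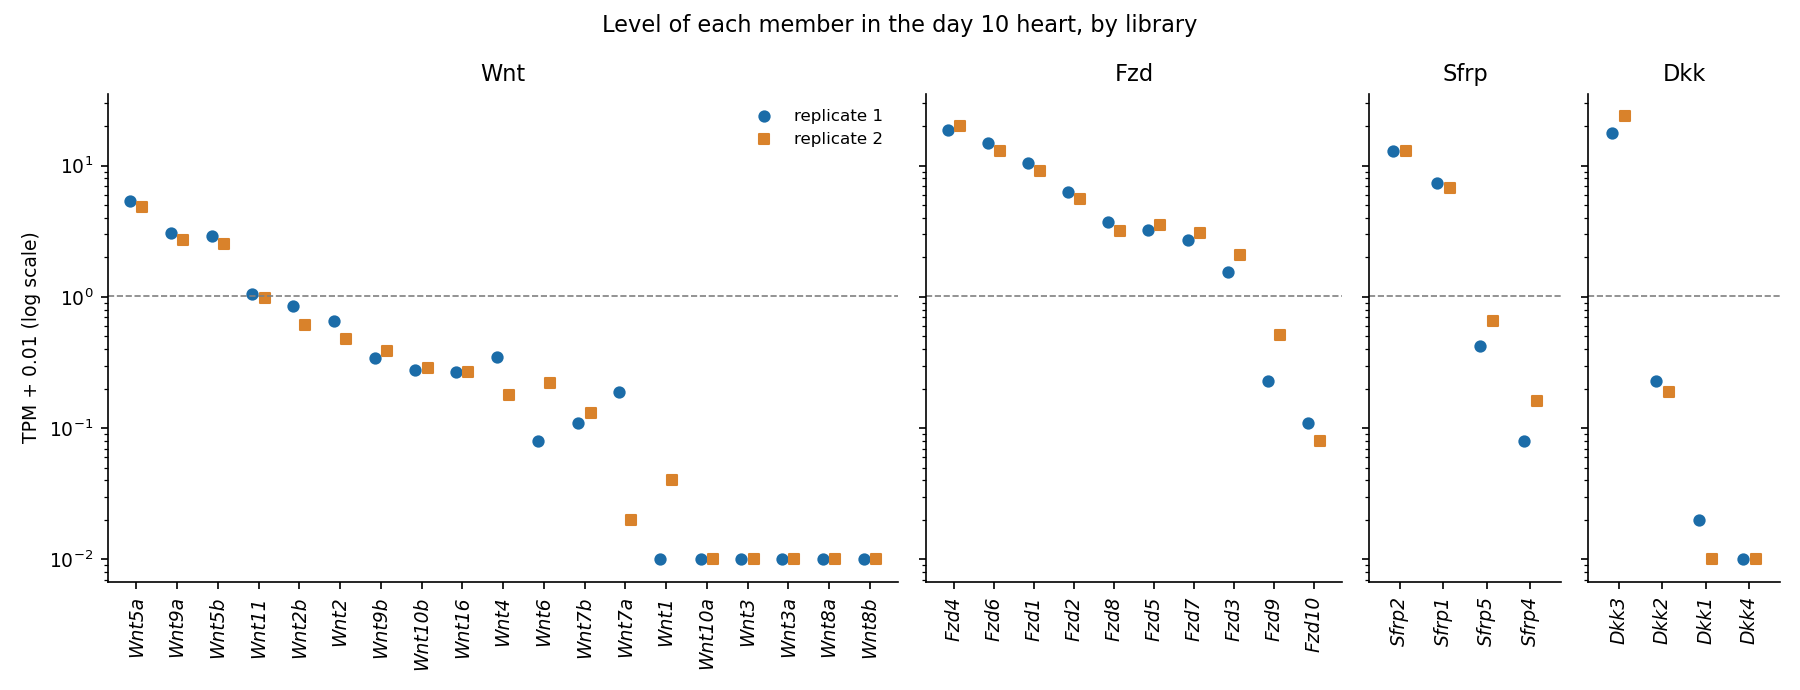
TPM + 0.01 of each member on a log axis, by class and in falling order of the mean, for replicate 1 (circles) and replicate 2 (squares); the dashed line marks 1 TPM. 8 of 10 Fzd genes lie above the line in both libraries, against 3 of 19 Wnt genes.

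Among the ligands, 3 genes made up 73.5% of the Wnt TPM in replicate 1 and 74.1% in replicate 2. Wnt5a, the ligand best known for signalling through Ror receptors and polarity, led with 5.37 TPM in replicate 1 and 4.81 TPM in replicate 2, from 753 and 733 counts. Wnt9a, a ligand known from joint and valve development, stood at 3.04 and 2.69 TPM (306 and 266 counts). Wnt5b, the close relative of Wnt5a, stood at 2.89 and 2.54 TPM (198 and 175 counts). The levels of Wnt9a and Wnt5b overlapped, and Wnt5a was above both in each heart.

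Wnt11, a polarity ligand active in the forming outflow tract, lay at the threshold with 1.04 and 0.98 TPM from 41 and 49 counts, and was the nearest member outside it. Fzd3 was the nearest inside, at 1.55 and 2.09 TPM. Wnt2b and Wnt2, ligands of the beta-catenin branch, followed Wnt11. Wnt2b had 0.84 TPM in replicate 1 and 0.60 TPM in replicate 2 (82 and 57 counts), and Wnt2 had 0.65 and 0.47 TPM (44 and 31 counts). Their ranges overlapped.

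The remaining ligands were lower still. Wnt9b, a ligand known from kidney tubule formation, had 45 and 52 counts (0.33 and 0.38 TPM). Wnt4, which is needed for kidney and gonad development, had 43 and 21 counts (0.34 and 0.17 TPM). Wnt10b, a ligand that restrains fat cell formation, had 19 and 21 counts, and Wnt16, known from bone, 14 and 12 counts. These 4 levels were all under 0.5 TPM. Wnt6 had 4 and 13 counts, Wnt7b 9 and 11, Wnt7a 3 and 1, and Wnt1 0 and 2.

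Wnt3, Wnt3a, Wnt8a, Wnt8b and Wnt10a had 0 counts in both libraries, as did the inhibitor gene Dkk4. All 5 ligands are known mainly from embryonic patterning or skin appendages. For these 6 genes, 3 counts, the level that a count of 0 still allows, would be 0.0322 to 0.0788 TPM in replicate 1 and 0.0328 to 0.0804 TPM in replicate 2. This limit and the counting errors below cover counting only.

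4 pairs of Wnt genes lie within 50000 bases of each other, and in each 1 gene had more counts than the other in both hearts. Wnt9a had 306 and 266 counts, while Wnt3a, 16175 bases away and on the opposite strand of chromosome 11, had 0 in both libraries. Wnt9b had 45 and 52 counts and Wnt3, 24328 bases away, had 0 in both. Wnt6 had 4 and 13 counts and Wnt10a, 6193 bases away, had 0 in both, but their counting intervals overlapped in replicate 1. Wnt10b had 19 and 21 counts and Wnt1, 11706 bases away, had 0 and 2.

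The receptors were spread over many genes. Fzd4, the receptor of Norrin and of several WNTs in vessel growth, was the highest with 18.7 TPM in replicate 1 and 19.9 TPM in replicate 2, from 3869 and 4045 counts. Fzd6, a receptor of the polarity branch, had 14.8 and 12.99 TPM (1180 and 1154 counts). Fzd1, a receptor of the beta-catenin branch, had 10.5 and 9.09 TPM (1350 and 1144 counts). The 3 did not overlap one another, and together held 71.2% of the Fzd TPM in replicate 1 and 70.0% in replicate 2.

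Fzd2, a relative of Fzd1 that binds Wnt5a, followed at 6.33 and 5.55 TPM (706 and 607 counts). Fzd8 and Fzd5, a pair of closely related receptors, could not be ordered. Fzd8 had 3.69 and 3.17 TPM (679 and 571 counts), and Fzd5 had 3.20 and 3.54 TPM (684 and 654 counts). Fzd7, the third gene of the Fzd1 and Fzd2 group, had 2.69 and 3.05 TPM (373 and 415 counts), a range that overlapped that of Wnt9a.

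Fzd3, the polarity receptor best known from axon guidance, had 613 and 598 counts and 1.55 and 2.09 TPM. The TPM gap came with a single short transcript described below, since the counts were close. Fzd9 had 15 and 34 counts (0.22 and 0.50 TPM) and Fzd10 had 10 and 7 counts (0.10 and 0.07 TPM), both below the threshold in each heart.

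1 gene carried nearly all the signal of the Dkk class. Dkk3, whose protein is a divergent member of the family and is not an established Lrp5 or Lrp6 inhibitor, had 17.8 TPM in replicate 1 and 24.03 TPM in replicate 2, from 1815 and 2405 counts. That was 98.7% and 99.3% of the Dkk TPM. Dkk2, a binder of Lrp5 and Lrp6, had 25 and 20 counts (0.22 and 0.18 TPM). Dkk1, the best studied inhibitor of the family, had 1 count in replicate 1 and 0 in replicate 2. Dkk3 had the highest mean of all 37 members, but its range contained that of Fzd4.

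Sfrp2 and Sfrp1, the ligand-binding decoys, held 97.7% and 96.1% of the Sfrp TPM. Sfrp2, which is known from fibroblasts and scar formation, had 12.8 TPM in replicate 1 and 12.9 TPM in replicate 2 (751 and 710 counts). Sfrp1 had 7.32 and 6.71 TPM (979 and 880 counts), below Sfrp2 in both hearts on the TPM scale. Sfrp5 had 23 and 36 counts (0.41 and 0.65 TPM), and Sfrp4 had 3 and 8 counts (0.07 and 0.15 TPM).

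19 pairs of related members were compared within each heart by the log2 ratio of TPM + 0.1, first gene over second. A pair was called apart when both ratios had the same sign and their mean exceeded 3 SD. This SD is over the libraries and leaves out the counting error of each gene, so it can be small where counts are few. With 2 libraries no exact permutation test can give a p below 0.5, so none is given. 13 pairs were apart, 9 with the first gene higher and 4 with it lower, and 6 were not. Of those 6, Wnt3 with Wnt3a and Wnt8a with Wnt8b were at 0 counts throughout.

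The ratio of Wnt5a over Wnt5b was 0.88 ± 0.017 (SD, n = 2), a 1.87-fold difference of the mean TPM. Over protein-coding transcripts alone the gap was smaller in both hearts, with 3.47 and 4.04 TPM for Wnt5a and 2.89 and 2.54 TPM for Wnt5b. The rule for pairs apart was not applied to these levels. Wnt9a over Wnt9b was 2.70 ± 0.23, an 8.07-fold difference. Fzd1 over Fzd2 was 0.71 ± 0.016, and Fzd3 over Fzd6 was −2.88 ± 0.42. In counts scaled by library size and not by length, Wnt5a over Wnt5b was 1.97 and Fzd3 over Fzd6 was −0.94, with the same signs. Wnt2 over Wnt2b was −0.31 ± 0.021, and was not apart in the kallisto-format table (−0.18 ± 0.139). That SD does not cover the counting error of 44 and 31 counts for Wnt2 and 82 and 57 for Wnt2b. The gap between Fzd4 and Fzd9 was 5.47 ± 0.58 and that between Dkk3 and Dkk2 was 6.12 ± 0.44.

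3 of the pairs that were not apart had counts of both genes. Fzd5 over Fzd8 was −0.20 in replicate 1 and 0.15 in replicate 2. Wnt7a over Wnt7b was 0.49 and −1, from 11 counts or fewer of each gene in every library. Fzd9 over Fzd10 had the same sign in both hearts, 0.68 and 1.82, with a mean below 3 SD. Sfrp1 over Sfrp2 was −0.87 ± 0.094 in TPM, but 0.34 in counts scaled by library size and not by length.

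**Figure D2:**
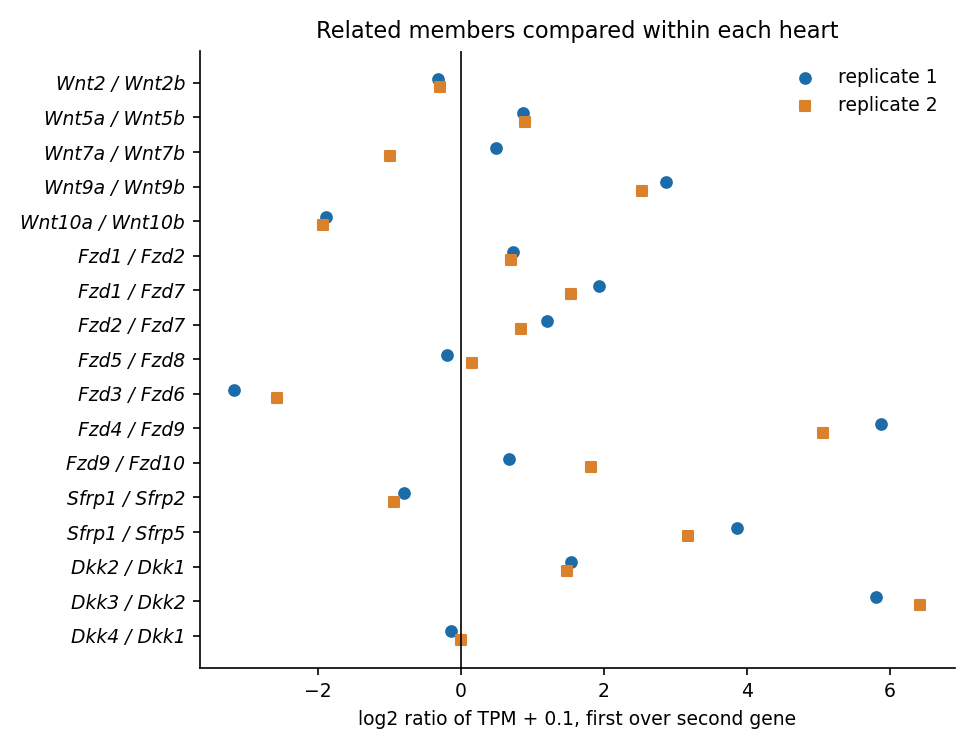
Log2 ratio of TPM + 0.1, first over second gene, for the 17 pairs with a count in at least 1 library; circles are replicate 1 and squares replicate 2, and the vertical line marks equal levels. The ratios of Fzd5 over Fzd8 and of Wnt7a over Wnt7b lie on both sides of the line.

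Which transcripts made up a member mattered for several levels. 20 members have a single annotated transcript and 17 have several; among the 14 detected, 7 have several. The leading transcript was the same in both hearts and in both transcript tables for Fzd3, Fzd5, Sfrp2 and Wnt9a. It was not the same for Fzd6, Wnt5a and Wnt5b.

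For Fzd6, transcripts annotated as retained intron or nonsense-mediated decay held 43.2% of the TPM in replicate 1 and 34.75% in replicate 2, but only 8.71% and 7.57% of its counts. They are short, 458 to 750 bases against 4081 and 4325 for the coding transcripts, and TPM weights each count by length. Their share was 47.0% and 40.4% of the TPM in the kallisto-format table. Over coding transcripts alone, Fzd6 had 8.41 and 8.48 TPM, below the 10.5 and 9.09 TPM of Fzd1, so the order of the pair depends on this choice. In the kallisto-format table the coding transcripts gave 10.6 and 10.5 TPM for Fzd6, and 12.2 and 10.2 TPM for Fzd1, which gives no common order in the 2 hearts.

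Wnt5a has 2 coding transcripts, for proteins of 380 and 360 residues. The first, Wnt5a-201, held 50.9% of the TPM in replicate 1 and 53.0% in replicate 2, and the second, Wnt5a-202, 13.9% and 30.9%. In the kallisto-format table the shares were 39.3% and 36.3% for the first and 30.8% and 39.4% for the second. Non-coding transcripts took 35.3% and 16.1%, which leaves 3.47 and 4.04 TPM of coding Wnt5a, still above Wnt9a and Wnt5b.

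The 4 coding transcripts of Wnt5b had no stable order. Wnt5b-204 led in replicate 1 with 54.9% of the TPM and Wnt5b-203 led in replicate 2 with 70.8%. The kallisto-format table gave 60.6% for Wnt5b-204 in replicate 1 and 51.3% for Wnt5b-201 in replicate 2. Wnt5b-201 and Wnt5b-204 encode 359 residues, Wnt5b-203 372 and Wnt5b-202 321.

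A short transcript moved the level of Fzd3. The non-coding Fzd3-201, of 426 bases, was given 0 counts in replicate 1 and 5.61 in replicate 2, which alone made 0.56 TPM. The coding Fzd3-202, of 12734 bases, had 1.55 TPM in replicate 1 and 1.53 in replicate 2. Wnt11, at the threshold, had 0.64 and 0.14 TPM over its coding transcripts alone in the RSEM-format table, against 0.82 and 1.12 in the kallisto-format one.

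**Figure D3:**
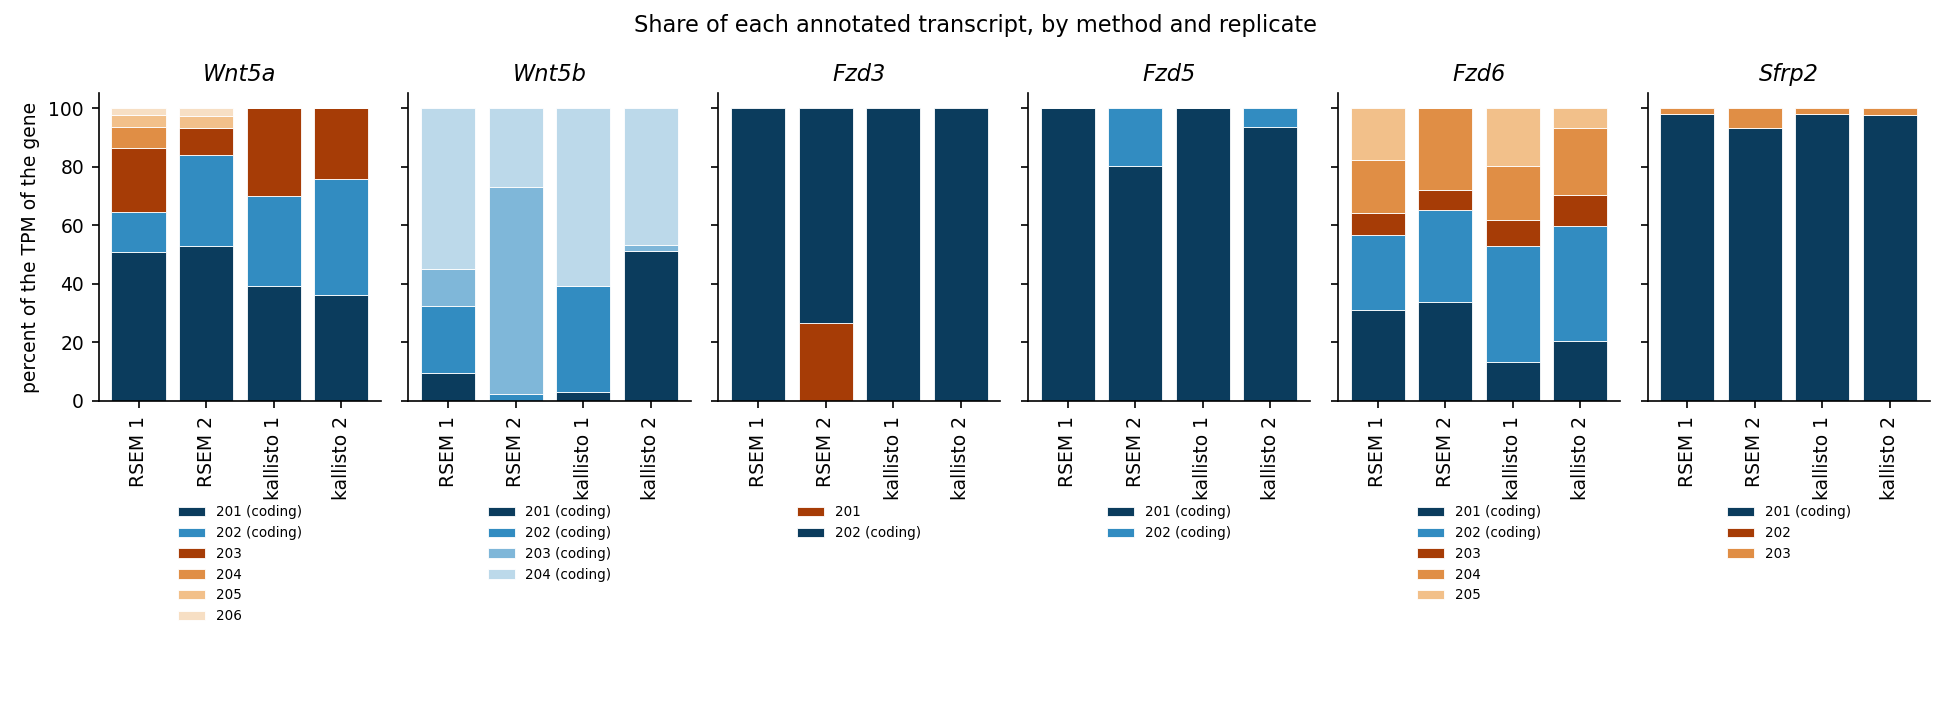
Percent of the TPM of each gene given to each annotated transcript, in the RSEM-format and kallisto-format tables of replicates 1 and 2; blue shades are protein-coding and orange shades other transcript types, and legend numbers are the transcript name suffixes. The bars for Wnt5b change their leading transcript between hearts and tables, and those for Sfrp2 give 1 transcript at least 93.1%.

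6 members share exon bases with a gene on the opposite strand: Fzd5 with Gm38058 (1233 bases), Wnt11 with Gm8398 (364), Wnt5a with Gm2670 (358), Sfrp2 with Gm26771 (347), Wnt7b with AU022754 (324) and Fzd6 with Gm26704 (152). The partners had 10 counts or fewer in each library. Whether counting used strand is not given in the sources used here, so reads of these partners cannot be assigned with certainty. The Wnt5b gene spans Fbxl14 on the other strand with no shared exon base; Fbxl14 had 722 and 689 counts.

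The 2 hearts were also compared gene by gene. For each gene with a summed count of at least 20, the counts of the libraries were compared by an exact binomial test, two-sided, with Benjamini-Hochberg adjustment over all 16517 genes tested. It compares these libraries, not conditions. The call needed an adjusted p under 0.05 together with a difference of at least 2-fold. 25 members were tested, 13 higher in replicate 1 and 12 lower. Of these 25, 1 was called, beside 216 of all 16517 genes tested (1.31%). A single call is too few to set the members against that share. The remaining 12 members had too few counts to be tested, whatever their ratio.

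The member called was Fzd9, with 15 counts in replicate 1 and 34 in replicate 2. Its log2 ratio of replicate 1 over replicate 2 was −1.19 with a counting standard error of 0.44 (exact binomial test, adjusted p = 0.0375). It was 2.29-fold higher in replicate 2. The call was lost with ERCC totals as library sizes (adjusted p = 0.0509) and without the count filter (adjusted p = 0.0563), so it depends on these settings.

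With no fold limit 5 members passed, against 17.6% of all genes tested. Dkk3 was lower in replicate 1, by a log2 ratio of −0.45 ± 0.045 (counting SE; exact binomial test, adjusted p = 1.16e-21). Fzd1 was higher by 0.20 (exact test, adjusted p = 0.00555). Wnt4, with 43 and 21 counts, was higher by 0.98 (exact test, adjusted p = 0.0488). It did not pass with kallisto-format counts (log2 ratio 0.67, exact test, adjusted p = 0.142) or without the count filter (adjusted p = 0.0729). Fzd4 was lower by a ratio of −0.10 (exact test, adjusted p = 0.0108), which changed sign to 0.0035 when ERCC totals were used. That scaling moved the median of all genes by 0.108. With total counts as library sizes the Fzd4 ratio no longer passed (exact test, adjusted p = 0.0525).

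The adipocyte, erythroid, atrial, neural and skeletal muscle marker sums given above moved between the same hearts as Dkk3, Fzd9 and Wnt4, and their part in these differences was not tested. The median absolute log2 ratio was 0.19 for the 25 tested members and 0.12 for all genes tested. Over the 14 detected members it was 0.13, against 0.093 for detected protein-coding genes. These sets were not matched for count level. Among the tested members the counting SE ranged from 0.032 (Fzd4) to 0.63 (Wnt7b), so these medians do not show that members differed more than other genes.

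**Figure D4:**
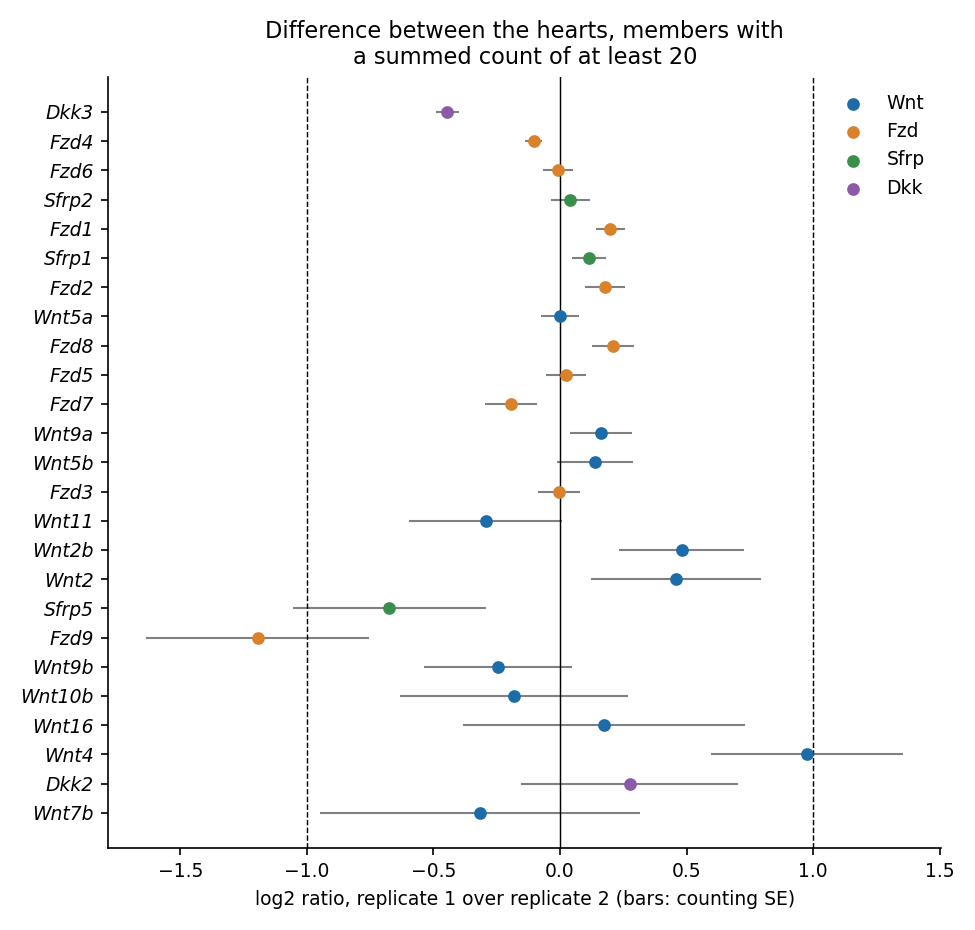
Log2 ratio of replicate 1 over replicate 2 for the 25 members tested, in falling order of mean TPM from the top, with counting SE as bars; dashed lines mark a 2-fold difference. Fzd9 lies beyond the lower dashed line at −1.19, and Dkk3, the top row, lies at −0.45.

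Detection varied among the other lists of pathway genes, while 53.3% of all protein-coding genes were detected. Wls, the ligand transporter, had 35.4 TPM in replicate 1 and 30.4 TPM in replicate 2, more than the 15.4 and 13.55 TPM of all Wnt genes together. Porcn, the enzyme that adds the lipid, had 1.24 and 1.22 TPM. 10 of 11 co-receptor genes were detected, among them Tspan12, a partner of Fzd4 in Norrin signalling (41.1 and 41.9 TPM), Kremen1, a Dkk receptor (32.6 and 32.2 TPM), Lrp6 (23.0 and 26.8 TPM) and Lrp5 (20.6 and 21.9 TPM). Each of the 4 was above the highest Fzd gene in both hearts.

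All 16 genes of the Dishevelled, destruction complex and beta-catenin list were detected, with Ctnnb1, which encodes beta-catenin, at 283 and 281 TPM. Of TCF factors and partners 7 of 8 were detected; the exception was Lef1 at 0.24 and 0.18 TPM. Of 12 polarity genes 11 were detected, led by Daam1, a Dishevelled-binding formin, at 34.8 and 30.0 TPM. Of 12 feedback targets 6 were detected, with Axin2, the classic readout of beta-catenin activity, at 2.19 and 2.09 TPM. The lists overlap: the feedback targets Znrf3, Rnf43, Lgr5, Notum, Apcdd1, Lef1 and Tcf7 are also counted in other lists.

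The other extracellular modulators were low, like the Wnt genes. Of 10, 4 were detected, including Frzb, a Frizzled-related decoy (2.98 and 2.95 TPM), and Wif1, which binds ligands (1.80 and 1.83 TPM). In the R-spondin list 4 of 9 genes were detected, led by the receptor Lgr4 at 14.8 and 12.7 TPM. No gene of the 8 lists was called between the hearts at 2-fold.

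**Figure D5:**
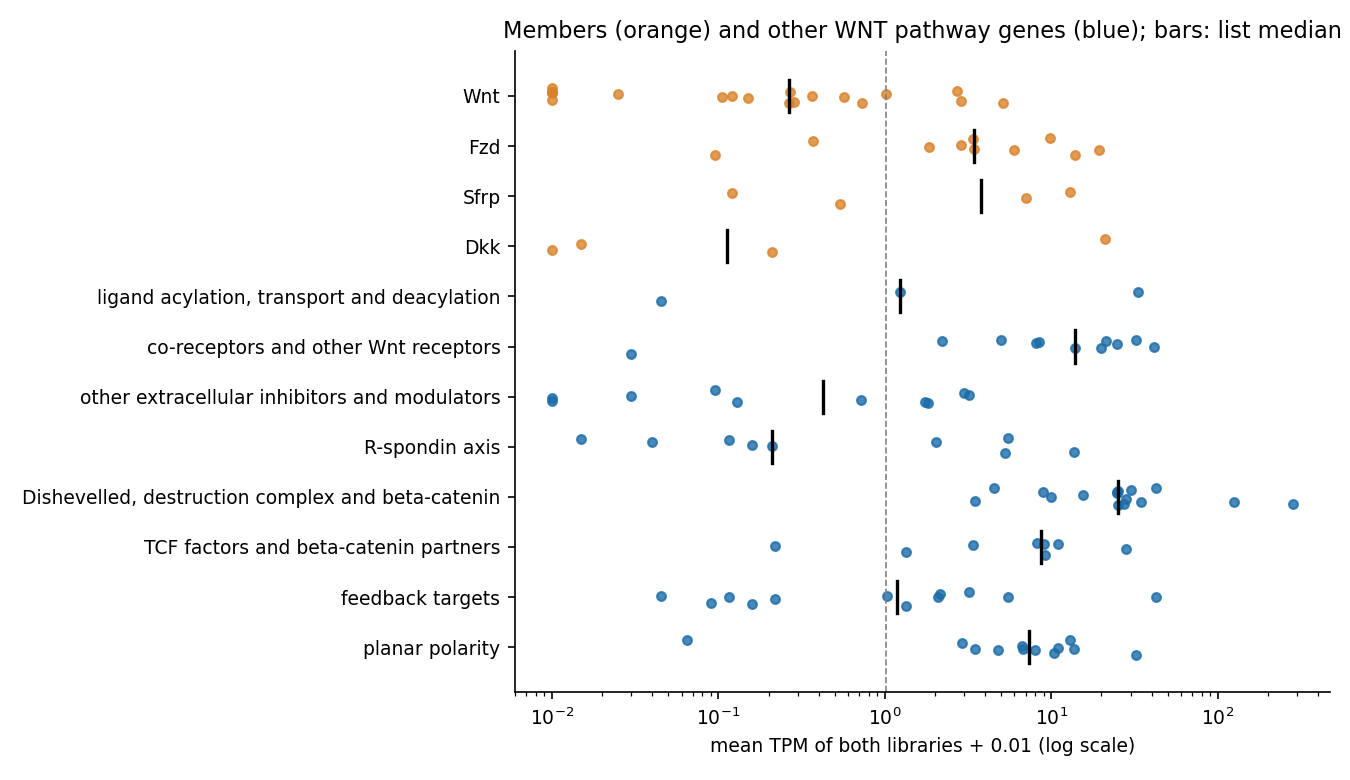
Mean TPM of both libraries + 0.01 on a log axis for each member by class (orange) and for the genes of 8 other WNT pathway lists (blue); black bars are medians and the dashed line marks 1 TPM. All 16 genes of the Dishevelled and beta-catenin list lie above the line, and most Wnt genes lie below it.

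Promoter sequence was looked up in RefSeq (GRCm38.p6), as 250 bases before to 50 after each gene start, and 25 of the 37 members matched with 28 promoters. The GC box GGGCGG, searched on both strands with overlaps counted, was in 21 of 28 member promoters (75%), against 35.7% of 32851 promoters of all genes. The TCF and LEF core CTTTGA, also on both strands, was in 4 of 28 (14.3%), against 16.0%. TATAAA was in 4 of 28 (14.3%), against 13.6%. The median GC content was 68.7% in member promoters and 52.7% in all, and the sets were not matched for it. The 32851 promoters were not limited to protein-coding genes, as the members are.

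The GC box was in 6 of 9 promoters of detected members and in 15 of 19 promoters of the others. The 9 come from 7 of the 14 detected members, and 3 of them are from Wnt5b. The 150 bases before the RefSeq start are shown for Fzd4, the highest receptor, for Sfrp2, which is abundant with no GC box there, and for the neighbours Wnt9a and Wnt3a, of which only Wnt9a had counts. Capitals mark GC boxes on either strand.

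Fzd4: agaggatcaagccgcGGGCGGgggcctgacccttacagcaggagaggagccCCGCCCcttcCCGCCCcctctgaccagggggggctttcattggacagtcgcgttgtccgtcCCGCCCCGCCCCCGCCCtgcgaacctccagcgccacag
Sfrp2: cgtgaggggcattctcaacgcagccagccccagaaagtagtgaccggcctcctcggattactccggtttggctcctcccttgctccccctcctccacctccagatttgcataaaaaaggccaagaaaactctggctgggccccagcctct
Wnt9a: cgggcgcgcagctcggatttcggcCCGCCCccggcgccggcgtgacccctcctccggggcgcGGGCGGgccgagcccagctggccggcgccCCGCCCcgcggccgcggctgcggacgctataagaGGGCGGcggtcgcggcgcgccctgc
Wnt3a: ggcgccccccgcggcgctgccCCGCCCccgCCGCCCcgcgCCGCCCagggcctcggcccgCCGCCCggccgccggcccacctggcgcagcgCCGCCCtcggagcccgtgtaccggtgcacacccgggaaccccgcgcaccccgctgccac

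They stand at chr7:89404216-89404365 on the plus strand for Fzd4, chr3:83766171-83766320 on the plus strand for Sfrp2, chr11:59306780-59306929 on the plus strand for Wnt9a and chr11:59290752-59290901 on the minus strand for Wnt3a. Fzd4 holds 6 GC boxes, Wnt9a 4, Wnt3a 5 and Sfrp2 0. Wnt9a had 306 and 266 counts, and Wnt3a had 0 in both hearts. Any relation of GC boxes to the level of a gene was not tested.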

How the data were processed

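For each library the authors deposited a gene table and a transcript table with the columns of the RSEM format, holding expected counts and TPM, and a transcript table with the columns of the kallisto format, holding estimated counts and TPM. The isoform percent of each transcript is the authors' deposited value. Per the text that accompanies the files, the values were made on mm10 with GENCODE M21. The aligner, counters, their versions and the use of strand are, in the sources used here, not given. The deposited length and interval columns served only to set the level of 3 counts or were not used.

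Members and lists were chosen with earlier results of these data known. Every member is accounted for, and other genes are named only from the pathway and marker lists or as genes that overlap a member. Expected counts of all 37 members were whole numbers within 0.005. They were rounded, and library sizes were scaled with edgeR 4.0.16 (TMM) in R 4.3.3. Setting 1 library against the other leaves no residual degree of freedom, so an exact binomial test with a prior count of 0.5 in the fold was used, run in Python 3.11.15 with scipy 1.17.1. The procedure was tested on data simulated with counting error alone, with changes placed in genes of higher counts. That simulation does not show how the test behaves with spread between animals or at the counts of Fzd9 and Wnt4. The 26248 entries without a gene name held 3.84 and 2.92 counts and were left out, as were ERCC counts.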

Additional observations from a re-analysis of the deposited data

How the results depend on the processing

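The number of members detected lay between 13 and 21 under 0.5 TPM (16), 2 TPM (13), 20 counts (21), the kallisto-format table (15), TPM over protein-coding nuclear genes (17) and protein-coding transcripts alone (14), the last chosen after seeing the data; single libraries gave 14 and 15. The class sums moved with the scale: the kallisto-format table gave 18.4 TPM for Wnt, 72.2 for Fzd and 25.1 for Sfrp; TPM over protein-coding nuclear genes gave 34.2, 144, 48.4 and, for Dkk, 49.7. Protein-coding transcripts alone gave 12.4 for Wnt, 55.1 for Fzd and 19.9 for Sfrp. Single libraries gave 13.55 to 15.38 TPM for Wnt, 59.95 to 61.75 for Fzd, 20.41 to 20.62 for Sfrp and 18.01 to 24.21 for Dkk. The Wnt sum was the lowest under each of these settings.

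The count of members called between the hearts was 0 without the count filter and 5 with no fold limit. It was 1 under the 4 other settings, namely Fzd9 with DESeq2 size factors, total counts and kallisto-format counts, and Wnt4 (log2 ratio 1.08, exact binomial test, adjusted p = 0.0170) with ERCC totals. ERCC totals turned the ratio of Fzd4 to 0.0035. The number of pairs apart was 12 with counts not scaled by length and 13 otherwise. Fzd2 over Fzd7 was lost there, and with the kallisto-format table Wnt2 over Wnt2b was lost and Dkk4 over Dkk1, both at 1 count or fewer in the gene table, was gained. With counts not scaled by length 10 of 19 ratios moved by more than their SD, and Sfrp1 over Sfrp2 was reversed to 0.34. No paired analysis was possible because there is 1 group. The spread between animals did not enter the test, and members at a few counts could not be ordered.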

Other observations

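Ror1, a receptor of Wnt5a, had 9.69 TPM in replicate 1 and 6.5 TPM in replicate 2, from 1718 and 1130 counts. Its log2 ratio of replicate 1 over replicate 2 was 0.56 (exact binomial test, adjusted p = 3.76e-23), under the 2-fold limit. It was named after its values were seen.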
